A study of Mus musculus with 6 samples.

Results

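The mitochondrial genome transcripts are the 37 genes whose symbol starts with mt- among the 41128 genes of the deposited table. They comprise 13 mRNAs, 2 rRNAs and 22 tRNAs, of which 28 are annotated on the plus strand of chromosome M and 9 on the minus strand. The rule for membership uses the symbol and no measured value. They were measured in RNA of leukemia cells from 6 mice, 3 with *Hoxa9*/MTV and 3 with *Hoxa9*/*IRX3* acute myeloid leukemia (AML), and 1 library was made per mouse. In both cohorts KIT+ bone marrow (BM) cells of young adult female CD45.1+ donor mice were transduced with a *Hoxa9* retrovirus, together with either a retrovirus carrying human *IRX3* or the empty vector MTV, selected with drugs and transplanted into irradiated congenic CD45.2+ recipients. The strain label is C57BL/6. In the paper this is the strain of the CD45.2+ mice, while the CD45.1+ donor mice are B6.SJL-Ptprca Pepcb/BoyJ. BM of recipients that had become sick was stored frozen and thawed, and viable donor-derived KIT+Gr1+ cells were sorted from it. The paper reports a later onset of AML in *Hoxa9*/*IRX3* recipients. Time since transplantation and cohort therefore cannot be told apart. The genes are driven by retroviral vectors, in whichever donor cells were transduced, in both cohorts alike. Mice are named 1.1, 1.2 and 1.4 (*Hoxa9*/MTV) and 3.2, 3.3 and 3.5 (*Hoxa9*/*IRX3*), and values are always given in this order.

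Mitochondrial DNA encodes core subunits of respiratory chain complexes I, III, IV and V, the 2 rRNAs of the mitochondrial ribosome and the tRNAs with which that ribosome reads the mRNAs. Both strands are transcribed from the control region into long precursors, which are cut mainly at the tRNAs that punctuate the genome. mt-Tf, the phenylalanine tRNA, is the gene nearest to the heavy-strand promoters, and the rRNAs follow it. mt-Tp, the proline tRNA, lies on the other side of the control region. It is the first gene reached from the light-strand promoter, and mt-Nd6 is the only mRNA transcribed from that promoter. All proteins for transcription, processing and translation of these RNAs come from nuclear genes.

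The tRNAs on which the results below turn are printed here in the GENCODE M21 annotation of GRCm38, from 5′ to 3′ of the RNA strand. Capitals mark the anticodon, located as the known letters within a loop of 7 bases closed by an arm with at least 4 of 5 base pairs, G-T pairs included. Where more than 1 place met this rule, the place with most pairs was taken. mt-Tf (chrM:1-68, plus strand) and mt-Tp (chrM:15356-15422, minus strand) are the genes at both ends of the annotated genome. mt-Tl1 (chrM:2676-2750, plus strand), a leucine tRNA between mt-Rnr2 and mt-Nd1, had the highest RPKM of the tRNA genes. mt-Tt (chrM:15289-15355, plus strand), the threonine tRNA, directly adjoins mt-Tp on the opposite strand.
mt-Tf: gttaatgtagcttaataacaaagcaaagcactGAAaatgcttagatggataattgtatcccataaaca
mt-Tp: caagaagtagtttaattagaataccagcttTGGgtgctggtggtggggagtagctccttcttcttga
mt-Tl1: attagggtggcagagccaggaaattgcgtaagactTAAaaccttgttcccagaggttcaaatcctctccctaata
mt-Tt: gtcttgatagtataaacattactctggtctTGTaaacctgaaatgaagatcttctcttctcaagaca

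Levels are RPKM, the reads of a gene scaled by the length of the gene and by the mapped reads of its library, as the authors deposited them. The smallest steps between values gave 7979246 to 9803621 reads per library, and with these every member's value was a whole number of reads within 7.5e-06 of a read. The mitochondrial genes have no introns, whereas the RPKM of nuclear genes divide by the whole gene with its introns, so levels of members were not compared with those of nuclear genes. Mouse *Irx3* had no reads in *Hoxa9*/MTV, while mice 3.2, 3.3 and 3.5 had 15.1, 0.421 and 0.148 RPKM. The introduced gene is a human cDNA, and whether these reads came from it or from the mouse gene was not tested. Of the markers of the sorted cells, Kit averaged 2.75 RPKM in *Hoxa9*/MTV and 2.16 in *Hoxa9*/*IRX3*, and Ly6c2, which encodes a Gr1 antigen, averaged 444 and 683. The 9 markers of the sorted cells were Kit, Ptprc, Itgam, Ly6c1, Ly6c2, Ly6g, Mpo, Elane and Hoxa9, which the retrovirus also carries. Their sum ranged from 1718 to 2655 RPKM in *Hoxa9*/MTV and from 4373 to 5124 in *Hoxa9*/*IRX3*. Elane, given below, makes a large part of the latter. Of these markers, 2 of 8 tested (Elane and Ly6g) were called higher. The summed level of 9 monocyte and macrophage markers ranged from 302 to 372 RPKM in *Hoxa9*/MTV and from 158 to 242 in *Hoxa9*/*IRX3*, and that of 9 neutrophil markers from 1483 to 2175 and from 1094 to 3334. Red cell, T cell and NK cell markers summed to less than 1 RPKM in all mice, with Hba-a1 and Cd3d at 0. B cell markers summed to between 6.35 and 7.30 RPKM in *Hoxa9*/MTV and between 0.652 and 5.03 in *Hoxa9*/*IRX3*, with Pax5 and Ms4a1 at 0 in all mice, 0 of 2 tested called by limma and 1 called lower by limma voom. Markers of bone marrow stroma summed to between 1.83 and 1.98 RPKM and between 0.562 and 6.08, and those of megakaryocytes to less than 1 RPKM in all mice. Elane, the neutrophil elastase of immature granulocytes, was higher in *Hoxa9*/*IRX3* (794 versus 2964 RPKM, limma adjusted p = 0.0265), and 2 of 8 tested monocyte and macrophage markers (Ccr2 and Ms4a6c) were lower while 0 of 9 neutrophil markers were called. The cohorts thus differed in myeloid marker genes, and the part of these cell differences in the results below was not tested. In bulk RNA a change in the mixture of cells and a change of RNA within each cell cannot be told apart.

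Not every member could be read. Of the 37 members, 28 had reads in at least 1 mouse and 9 were listed at 0 in all 6. The 9 are 5 mRNAs and 4 tRNAs: mt-Co2 and mt-Co3 (subunits of complex IV), mt-Atp8 and mt-Atp6 (complex V), mt-Nd4l (complex I), mt-Ts1, mt-Td, mt-Tk and mt-Tr. They lie together between bases 6870 and 10173 of chrM. The only other members of this stretch, the glycine tRNA mt-Tg and the complex I mRNA mt-Nd3, had the same few reads each, namely 3, 1 and 1 in *Hoxa9*/MTV and 1, 0 and 2 in *Hoxa9*/*IRX3*. The neighbors on either side, mt-Co1 and mt-Nd4, had many reads in every mouse, 64520 to 111240 and 13893 to 35647. A count of 0 in the smallest library allows up to 0.550 RPKM for mt-Co2 and 5.53 for mt-Tr, by 3 reads of counting error, and it limits only reads that passed the authors' alignment filter.

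The annotation places 7 pseudogenes of mitochondrial origin on chromosome 1 of GRCm38, in 4663 bases from chr1:24611535-24616197 on the minus strand, that are at least 99% identical to parts of 8 mitochondrial mRNAs. mt-Co2 matched Gm28661 in 681 of 681 aligned bases, mt-Atp6 matched Gm10925 in 678 of 678, mt-Co3 matched Gm28437 in 783 of 783 and mt-Nd4l matched Gm10222 in 294 of 294. Gm10925 also covers 43 bases of mt-Atp8. Gm28439 equals 876 bases of mt-Nd4, and Gm29216 equals 482 of 483 bases at the end of mt-Co1. All 7 pseudogenes were listed at 0 in all mice, as were mt-Co2, mt-Atp6, mt-Co3 and mt-Nd4l. The annotated pseudogenes hold no tRNA. Between them on chromosome 1 lie gaps of 140, 233, 69 and 74 bases, and between their matches on chrM gaps of 140, 233, 69 and 73. On chrM these gaps hold mt-Ts1 with mt-Td, mt-Tk with the first part of mt-Atp8, mt-Tg and mt-Tr, in this order. The sequence of the gaps on chromosome 1 was not used here. The reads behind the deposited values had been aligned to the whole genome and kept only above a quality limit of 20, which reads with equal matches in 2 places do not usually reach. Its part in the block of zeros was not tested.

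mt-Nd3 has 1 base near its start that separates it from its copy. The first 60 bases are shown for mt-Nd3 (chrM:9459-9518, plus strand) with its copy Gm28438 (chr1:24613060-24613119, minus strand), which is identical in 344 of 345 bases, and for mt-Co2 (chrM:7013-7072, plus strand) with Gm28661 (chr1:24615506-24615565, minus strand). The capital marks the difference, T3C, counted from the start of mt-Nd3, which is base 9461 of chrM. No capital appears in the other pair because these bases are the same.
mt-Nd3: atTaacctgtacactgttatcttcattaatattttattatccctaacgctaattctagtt
Gm28438: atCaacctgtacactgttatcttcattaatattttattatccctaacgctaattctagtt
mt-Co2: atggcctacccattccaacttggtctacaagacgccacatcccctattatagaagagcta
Gm28661: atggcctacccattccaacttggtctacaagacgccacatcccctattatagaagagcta
The base that differs is the third of mt-Nd3, close to mt-Tg. mt-Tg and mt-Nd3 are the 2 members of the block that had reads, at most 3 each per mouse. Whether this base has a part in that was not tested. Other nuclear copies of lower identity were nearly without reads. The most read was Gm13340, 97.61% identical to mt-Co1, with 0, 0 and 3 reads in *Hoxa9*/MTV and 2, 3 and 4 in *Hoxa9*/*IRX3*.

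**Figure D1:**
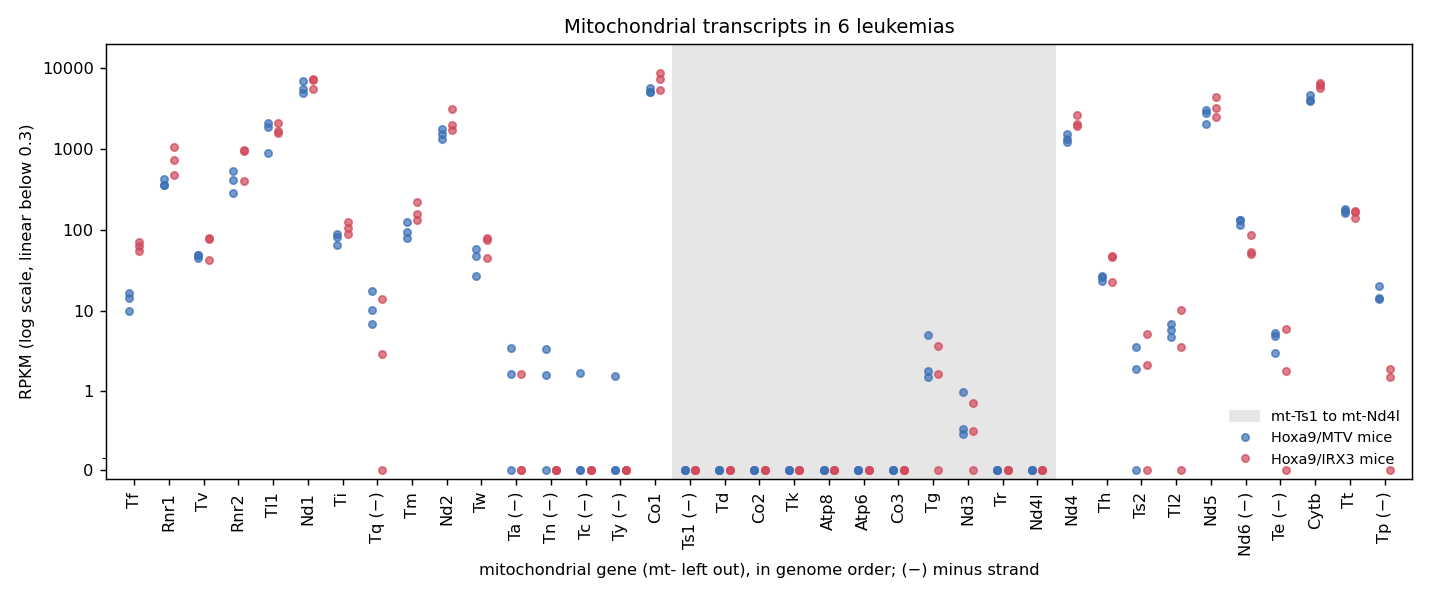
RPKM (y axis, log scale, linear below 0.3) of the 37 mitochondrial genes in genome order (x axis), with 1 point per mouse, blue for Hoxa9/MTV and red for Hoxa9/IRX3. In the gray stretch from mt-Ts1 to mt-Nd4l 9 of 11 genes are at 0 in all 6 mice, whereas mt-Co1 and mt-Nd4 beside it are far above 0 in every mouse. mt-Tf at the left end is higher and mt-Tp at the right end lower in Hoxa9/IRX3.

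Each gene above 0.5 RPKM in at least 1 mouse was tested with limma on log2(RPKM + 0.5), and it was called at a Benjamini-Hochberg adjusted p under 0.05 over all 12806 genes tested. All 28 members with reads entered the test. Only 16 of them had at least 10 reads in every mouse, and 7 never exceeded 3 reads. mt-Tf was called higher in *Hoxa9*/*IRX3* and mt-Tp lower, and the other 26 were not called. Over all genes, 0.953% were called higher and 1.59% lower. At an unadjusted p under 0.05 there were 8 members of 28, where 20.6% of all genes had such a p. The *Hoxa9*/*IRX3* mice all lay above the *Hoxa9*/MTV mice in 5 members (mt-Tf, mt-Rnr1, mt-Tm, mt-Nd4 and mt-Cytb), where this held for 11.2% of all genes, and all below them in 2 (mt-Nd6 and mt-Tp), where it held for 19.0%.

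The share of reads on mitochondrial genes was 2.75%, 2.48% and 3.17% in *Hoxa9*/MTV and 3.12%, 4.35% and 4.03% in *Hoxa9*/*IRX3*. The 9 members listed at 0 add nothing to these shares. Mouse 3.2 lay within the range of the control cohort and the others above it. The mean was 2.80% ± 0.351 (SD, n = 3) against 3.83% ± 0.638, a difference of 1.03 percentage points (exact permutation test, two-sided p = 0.2, where 3 mice against 3 allow no p under 0.1). The 13 mRNAs together made 20433, 18655 and 23707 RPKM in *Hoxa9*/MTV and 23478, 31731 and 28831 in *Hoxa9*/*IRX3*. In these sums 5 of the mRNAs count as 0, and mt-Nd3 adds at most 3 reads per mouse. The cohorts overlapped by mouse 3.2, and the log2 difference of the means was 0.42 (exact permutation p = 0.2). With mt-Co1 and mt-Nd4 scaled to the 1062 and 502 bases outside the chromosome 1 copy, it was 0.45. This setting was added after the values were seen. The cohorts then no longer overlapped (exact permutation p = 0.1, the smallest possible), but mouse 1.4 at 28982 RPKM lay just below mouse 3.2 at 29324.

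The mt-Nd mRNAs encode subunits of complex I, which takes electrons from NADH. mt-Nd4, a core membrane subunit, had 1330, 1214 and 1544 RPKM in *Hoxa9*/MTV and 1926, 2639 and 2063 in *Hoxa9*/*IRX3*. Its cohorts did not overlap, but it missed the threshold (log2 change 0.69, SE 0.16, limma adjusted p = 0.0843). mt-Nd2 had 1547, 1327 and 1794 RPKM in *Hoxa9*/MTV and 1740, 3166 and 1994 in *Hoxa9*/*IRX3*, a log2 change of 0.53 (SE 0.25, limma adjusted p = 0.286). Mice 3.3 and 3.5 were above the controls and mouse 3.2 was within their range. mt-Nd5 (log2 change 0.33, SE 0.25, limma adjusted p = 0.496) and mt-Nd1 (0.22, SE 0.17, limma adjusted p = 0.488) also overlapped between cohorts. Quantile normalization lowered the log2 changes to 0.31 for mt-Nd4, 0.058 for mt-Nd2 and 0.19 for mt-Nd5 and turned that of mt-Nd1 to -0.083. mt-Nd3, with 3 reads at most, gave no usable change.

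mt-Cytb, the only mitochondrially encoded subunit of complex III, had 3974, 4033 and 4619 RPKM in *Hoxa9*/MTV and 6211, 6670 and 5624 in *Hoxa9*/*IRX3*. All *Hoxa9*/*IRX3* mice lay above all control mice. The mean was 4209 ± 357 RPKM against 6168 ± 524 (SD, n = 3), and the log2 change of 0.55 (SE 0.10) stood just outside the threshold (limma adjusted p = 0.0518). It passed with a pseudocount of 1 RPKM (0.0476) and with median-of-ratios scaling (0.0313), and in no fit that left out 1 mouse. Quantile normalization gave a log2 change of 0.28 (limma adjusted p = 0.299), and the fit without a filter on low values an adjusted p of 0.587. mt-Co1, the catalytic subunit of complex IV, had 5025, 5028 and 5675 RPKM in *Hoxa9*/MTV and 5465, 7344 and 8741 in *Hoxa9*/*IRX3*. Mouse 3.2 was again within the control range, and the log2 change was 0.43 (SE 0.18, limma adjusted p = 0.242), which quantile normalization turned to -0.074. No mRNA of complex V could be read.

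The rRNAs of the small and large ribosomal subunit were measured in polyA-selected libraries. mt-Rnr1, the 12S rRNA, had 355, 360 and 425 RPKM in *Hoxa9*/MTV and 481, 743 and 1051 in *Hoxa9*/*IRX3*. The cohorts did not overlap, but the *Hoxa9*/*IRX3* mice were widely spread (log2 change 0.93, SE 0.29, limma adjusted p = 0.149). Without mouse 3.2 mt-Rnr1 was called, with a log2 change of 1.22 and a limma adjusted p of 0.0484. In no other fit that left out 1 mouse was it called (limma adjusted p 0.201 to 0.352). mt-Rnr2, the 16S rRNA, had 414, 284 and 529 RPKM in *Hoxa9*/MTV and 408, 940 and 988 in *Hoxa9*/*IRX3* (log2 change 0.87, SE 0.41, limma adjusted p = 0.286). Here mouse 3.2 lay at the level of mouse 1.1 and the other two were higher. Reads on the rRNAs per 100 mRNA reads were 3.78, 3.32 and 4.10 in *Hoxa9*/MTV and 3.69, 5.35 and 6.82 in *Hoxa9*/*IRX3* (log2 difference 0.50, exact permutation p = 0.3). mt-Rnr2 made 63.3% ± 5.77 of the rRNA reads in *Hoxa9*/MTV and 62.3% ± 4.81 in *Hoxa9*/*IRX3* (SD, n = 3).

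**Figure D2:**
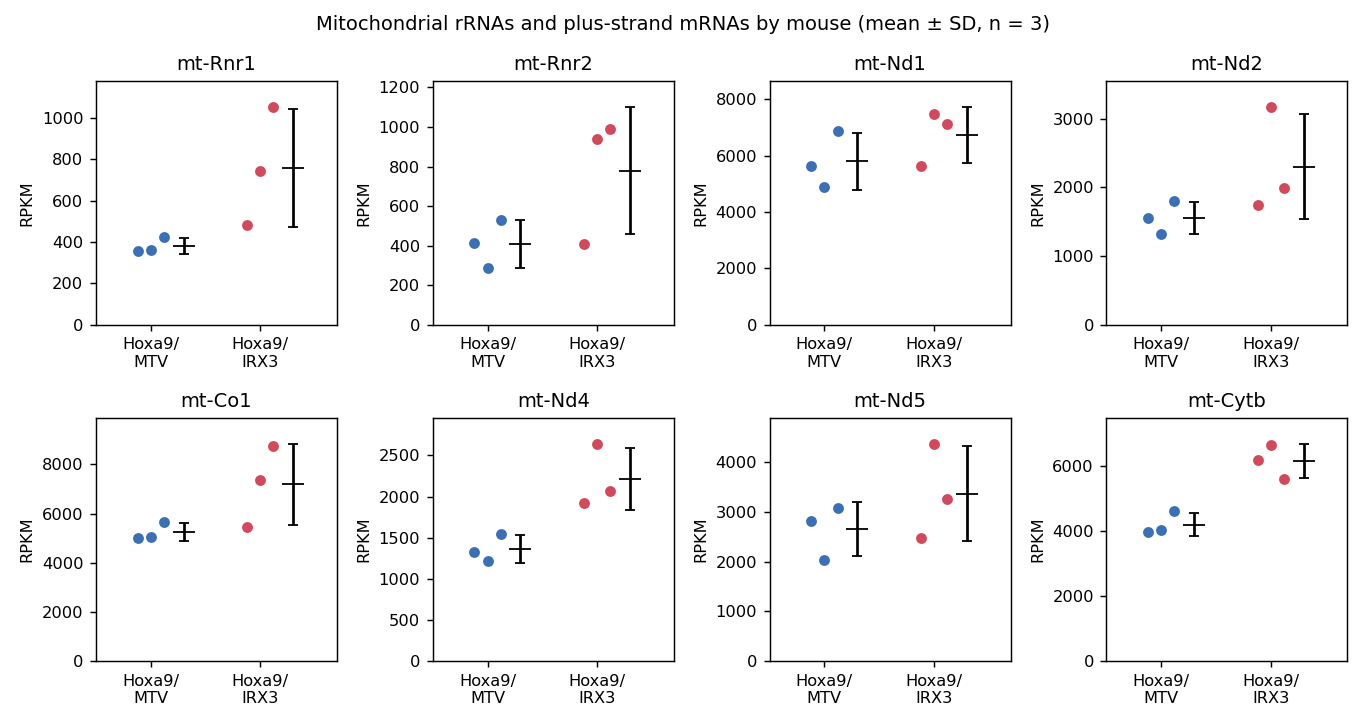
RPKM (y axes, from 0) of the 2 mitochondrial rRNAs and 6 plus-strand mRNAs in each mouse (points) with the mean and SD of each cohort (bars, n = 3). mt-Cytb, mt-Nd4 and mt-Rnr1 separate the cohorts without overlap, whereas in the other 5 the lowest Hoxa9/IRX3 mouse lies within the Hoxa9/MTV range. None of the 8 was called.

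The makeup of the mRNA reads does not depend on the total. It leaves out the 5 mRNAs at 0 in all mice. Of mt-Co1 and mt-Nd4, 483 and 876 bases lie in the chromosome 1 copies, and the effect on their shares was not tested. mt-Nd1 made 20.4%, 19.5% and 21.7% of the mRNA reads in *Hoxa9*/MTV and 18.0%, 17.4% and 18.1% in *Hoxa9*/*IRX3*, so that all *Hoxa9*/*IRX3* mice were lower. mt-Nd4 made 6.96%, 7.00% and 7.02% in *Hoxa9*/MTV and 8.87%, 8.86% and 7.56% in *Hoxa9*/*IRX3*, all higher. For the other abundant mRNAs the cohorts overlapped, with 30.3% and 30.6% for mt-Co1, 18.0% and 19.8% for mt-Cytb, 17.9% and 16.7% for mt-Nd5 and 6.00% and 6.52% for mt-Nd2 as cohort means. These shares are given as a description, since they sum to 100% and no test was run on them.

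**Figure D3:**
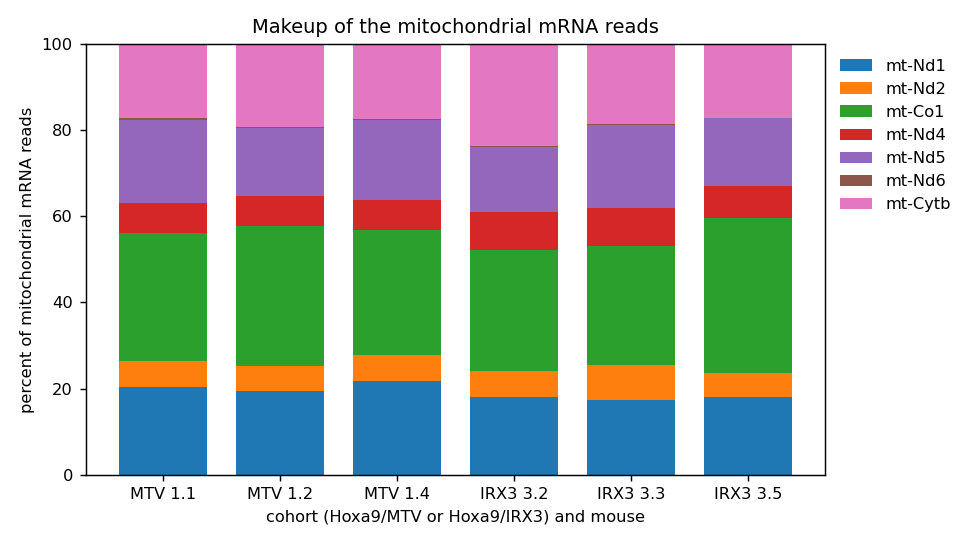
Percent of the mitochondrial mRNA reads (y axis) that fell on each mRNA in each mouse (x axis). mt-Nd3 and the 5 mRNAs at 0 are not drawn. mt-Nd1 takes 19.5% to 21.7% in Hoxa9/MTV and 17.4% to 18.1% in Hoxa9/IRX3, and mt-Nd6 is a thin line of under 0.3%.

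mt-Nd6, a complex I subunit and the mRNA of the minus strand, had a lower mean in *Hoxa9*/*IRX3*, where the other mRNAs with at least 10 reads per mouse had higher means in RPKM as deposited (mt-Nd1 and mt-Co1 were lower after quantile normalization). It had 606, 579 and 579 reads in *Hoxa9*/MTV and 248, 437 and 209 in *Hoxa9*/*IRX3*, or 127 ± 10.4 and 63.4 ± 19.5 RPKM (SD, n = 3). All *Hoxa9*/*IRX3* mice lay below all control mice, with mouse 3.3 the nearest to them. The log2 change was -1.04 (SE 0.23) and missed the threshold (limma adjusted p = 0.0809). Without mouse 3.3 it was called, with a log2 change of -1.27 and a limma adjusted p of 0.0234. In no other fit that left out 1 mouse was mt-Nd6 called (limma adjusted p 0.122 to 0.255).

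Relative to the other mRNAs the separation was wider. mt-Nd6 had 0.261, 0.293 and 0.198 reads per 100 reads on the other mRNAs in *Hoxa9*/MTV and 0.0937, 0.109 and 0.0697 in *Hoxa9*/*IRX3*. The lowest control mouse was still above the highest *Hoxa9*/*IRX3* mouse. The means were 0.251 ± 0.0482 and 0.0907 ± 0.0197 (SD, n = 3), a 2.76-fold lower ratio in *Hoxa9*/*IRX3* (log2 difference -1.47, exact permutation p = 0.1, which no arrangement of 6 mice can undercut). The ratio joins the difference in mt-Nd6 with that in the sum of the other mRNAs, given above. mt-Nd6 shares 14 bases with mt-Nd5 on the opposite strand. The libraries were made with a strand-specific kit, but whether the counting used strand is not given in the sources used here, so that reads of mt-Nd6 and of RNA from the opposite strand cannot be told apart.

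The other 8 members of the minus strand are tRNAs. One of them, mt-Ts1, was at 0 within the block, and the rest had 29, 19 and 19 reads together in *Hoxa9*/MTV and 1, 7 and 10 in *Hoxa9*/*IRX3*. This quantity was chosen after the values were seen. Per 10000 mitochondrial reads it was 1.19, 0.923 and 0.619 in *Hoxa9*/MTV and 0.0362, 0.164 and 0.311 in *Hoxa9*/*IRX3*, without overlap (exact permutation p = 0.1, the smallest possible). With mt-Nd6 included, the genes annotated on the minus strand held 26.1, 29.0 and 19.5 of every 10000 mitochondrial reads in *Hoxa9*/MTV. In *Hoxa9*/*IRX3* they held 9.01, 10.4 and 6.80, and in both cohorts most of these reads fell on mt-Nd6. As for mt-Nd6, reads from RNA of the opposite strand cannot be told apart in these sums.

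mt-Tp carried the largest share of the minus-strand tRNA reads in *Hoxa9*/MTV. It had 12, 8 and 9 reads there and 0, 1 and 1 in *Hoxa9*/*IRX3*, or 20.3, 14.4 and 13.9 RPKM against 0, 1.52 and 1.87. The cohorts were far apart, on few reads. limma gave a log2 change of -3.62 (SE 0.60, adjusted p = 0.0436), whose size depends on the pseudocount. The 29 reads of the control mice against 2 make a 14.4-fold ratio per mapped read, with an exact 95% interval from 3.64-fold to 125-fold that covers counting error only. The call was lost with a pseudocount of 0.1 RPKM (limma adjusted p = 0.104), without the filter on low values (0.0772), with quantile normalization (0.0504), and in 5 of 6 fits that left out 1 mouse. In these 5 the adjusted p was 0.156, 0.158 and 0.163 without mice 1.1, 1.2 and 1.4, and 0.0571 and 0.0584 without mice 3.3 and 3.5.

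mt-Tt, the plus-strand neighbor printed above beside mt-Tp, had 97, 100 and 112 reads in *Hoxa9*/MTV and 100, 113 and 74 in *Hoxa9*/*IRX3*. The cohorts overlapped, with a log2 change of -0.11 (SE 0.14, limma adjusted p = 0.653). mt-Te, the glutamate tRNA between mt-Nd6 and mt-Cytb, had 3, 3 and 2 reads in *Hoxa9*/MTV and 0, 4 and 1 in *Hoxa9*/*IRX3*, and mt-Tq, the glutamine tRNA, had 11, 4 and 7 against 0, 2 and 8. Both overlapped. mt-Ta, mt-Tn, mt-Tc and mt-Ty, the alanine, asparagine, cysteine and tyrosine tRNAs that lie together, had at most 2 reads in any mouse. mt-Tn, mt-Tc and mt-Ty had reads only in *Hoxa9*/MTV and entered the test through that cohort, so their log2 changes could only be negative.

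At the other end of the genome, mt-Tf had 6, 8 and 11 reads in *Hoxa9*/MTV and 38, 37 and 38 in *Hoxa9*/*IRX3*. In RPKM this was 9.98, 14.2 and 16.7 against 63.1, 55.5 and 70.0. Every *Hoxa9*/*IRX3* mouse was more than 3 times above the highest control mouse. The means were 13.6 ± 3.41 and 62.9 ± 7.27 RPKM (SD, n = 3), with a log2 change of 2.19 (SE 0.22, limma adjusted p = 0.0125). Across the other settings the adjusted p lay between 0.00981 and 0.0308, the latter with limma voom on the recovered reads. The call was lost when any *Hoxa9*/MTV mouse was left out (adjusted p 0.0506, 0.0688 and 0.0582 without mice 1.1, 1.2 and 1.4, log2 change 1.99 to 2.35), where only 12 to 20 genes of the whole table were called in place of 326.

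mt-Rnr1 starts at base 70, directly after mt-Tf, and its estimate was 0.93 on the log2 scale, without a call. mt-Tv, the valine tRNA between the rRNAs, had 30, 28 and 30 reads in *Hoxa9*/MTV and 26, 53 and 42 in *Hoxa9*/*IRX3* (log2 change 0.41, SE 0.26, limma adjusted p = 0.414). Mouse 3.2 was below the controls there and the other two above. The difference between mt-Tf and its neighbors was not itself tested. A gene of 68 bases is shorter than the paired reads of 75 bases, and the libraries were polyA-selected. Reads on any of the tRNA genes can therefore also belong to longer RNAs that run into it.

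**Figure D4:**
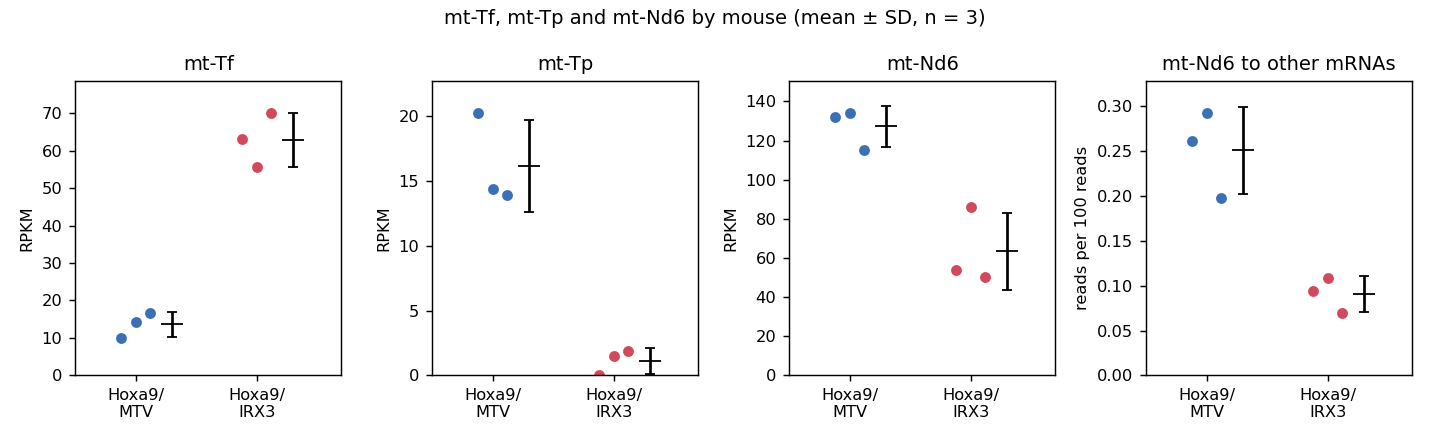
RPKM of mt-Tf, mt-Tp and mt-Nd6 and reads of mt-Nd6 per 100 reads on the other mRNAs (y axes, from 0) in each mouse (points) with the mean and SD of each cohort (bars, n = 3). The cohorts do not overlap in any panel, with mt-Tf higher and the others lower in Hoxa9/IRX3, and mt-Tp rests on 0 to 12 reads per mouse.

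None of the other plus-strand tRNAs was called. mt-Tl1, printed above, had by far the most reads of the tRNAs, 1236, 551 and 1546 in *Hoxa9*/MTV and 1048, 1567 and 1010 in *Hoxa9*/*IRX3*, and made 75.6% ± 7.96 and 74.2% ± 0.339 of all tRNA reads (SD, n = 3). In every mouse its RPKM was above those of both rRNAs, and below that of mt-Nd1, which starts on the base after it. Mouse 1.2 was low and the cohorts overlapped (log2 change 0.23, SE 0.34, limma adjusted p = 0.727, and -0.12 after quantile normalization). mt-Tm, the methionine tRNA before mt-Nd2, had 48, 54 and 83 reads in *Hoxa9*/MTV and 95, 148 and 72 in *Hoxa9*/*IRX3*. In RPKM the lowest *Hoxa9*/*IRX3* mouse was just above the highest control, 131 against 124, and the log2 change was 0.75 (SE 0.26, limma adjusted p = 0.179). mt-Ti, mt-Tw and mt-Th, the isoleucine, tryptophan and histidine tRNAs, had log2 changes of 0.43, 0.61 and 0.51 (limma adjusted p = 0.270, 0.376 and 0.391), and mt-Ts2 and mt-Tl2 had at most 7 reads. All tRNAs together had 0.665, 0.418 and 0.656 reads per 100 mRNA reads in *Hoxa9*/MTV and 0.535, 0.522 and 0.454 in *Hoxa9*/*IRX3* (log2 difference -0.20, exact permutation p = 0.4).

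The nuclear genes that make and use these RNAs were read from lists of 158 genes of mitochondrial gene expression and 76 respiratory chain subunits. None of the 143 and 73 that were tested was called by limma or by limma voom, while 22 and 10 had an unadjusted p under 0.05, below the 20.6% of all genes that had one. The median log2 changes were -0.09 and -0.01, and that of all genes tested was -0.06. Polrmt, the RNA polymerase of mitochondria, averaged 3.22 RPKM in *Hoxa9*/MTV and 2.74 in *Hoxa9*/*IRX3* (limma adjusted p = 0.467). Tfam, which binds the promoters and packages the genome, averaged 3.58 and 3.28 (limma adjusted p = 0.584). Slirp, which stabilizes mitochondrial mRNAs with Lrpprc, averaged 0.447 and 0.574 (limma adjusted p = 0.701), and Lrpprc itself, at 0.448 and 0.435, was below the threshold of the test.

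By function, the median log2 change was -0.15 over 16 genes of transcription and replication, -0.14 over 28 of RNA processing and decay, -0.09 over 12 translation factors, -0.18 over 15 aminoacyl-tRNA synthetases and -0.04 over 72 ribosomal proteins. Among nuclear respiratory subunits it was -0.05 over 34 of complex I, 0.10 over 9 of complex III, 0.00 over 11 of complex IV and -0.15 over 15 of complex V. Complex II, which has no mitochondrially encoded subunit, had a median of -0.01 over 4. The tested mitochondrial mRNAs had 6 positive and 2 negative changes of 8 with a median of 0.38, and both rRNAs were positive. After quantile normalization 4 mRNAs were positive and 4 negative, with a median of -0.0082, and both rRNAs stayed positive. The negative mRNAs include mt-Nd3 in both cases, at -0.33 and -0.25, on at most 3 reads per mouse. Both counts and both medians of the mRNAs thus include a member without a usable change. No test compared these medians.

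**Figure D5:**
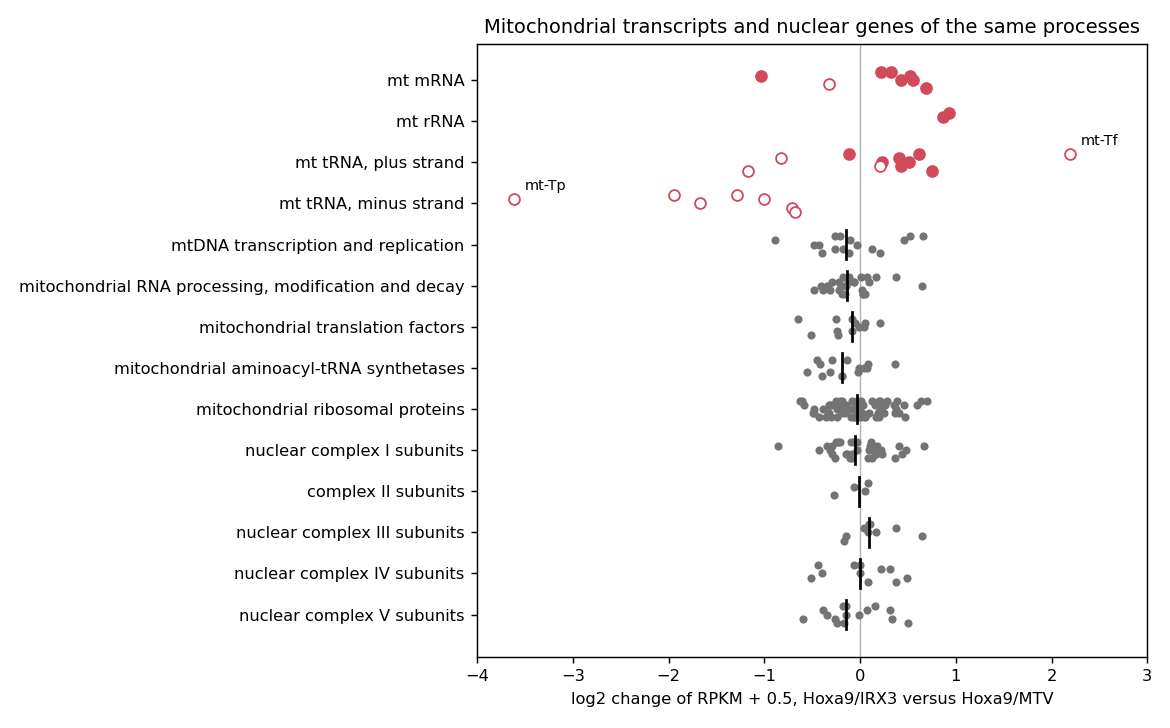
Log2 change of RPKM + 0.5 in Hoxa9/IRX3 versus Hoxa9/MTV (x axis) for the 28 mitochondrial transcripts tested (red, open where a mouse had fewer than 10 reads) and for nuclear genes of the same processes (gray, with black lines at the medians), by group (y axis). The mitochondrial mRNAs lie to the right of 0 except mt-Nd6 and mt-Nd3, the latter on at most 3 reads per mouse. After quantile normalization 4 of 8 lie to the left of 0, mt-Nd3 among them. The minus-strand tRNAs tested lie to the left of 0 on few reads. Of these, mt-Tn, mt-Tc and mt-Ty had reads only in Hoxa9/MTV, so that no other direction was possible for them. The medians of the nuclear lists lie between -0.18 and 0.10.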

How the data were processed

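RNA of sorted KIT+Gr1+ leukemia cells was sequenced by the authors from 6 mice, 3 per cohort, with strand-specific polyA libraries and paired reads of 75 bases. Cohorts were taken from the sample labels. The authors used Bowtie2 2.2.1 for alignment to GRCm38 and SAMtools 0.1.19 to drop reads that were unaligned, non-primary or under Phred 20. They counted reads over Ensembl version 76 genes and deposited RPKM, which divide by gene length and by library size. The deposited table was the only file, and 0 columns of values per sample were left unused.

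Gene positions, types and sequences were taken from GENCODE M21 (GRCm38), which holds 40254 of the 41128 genes. Reads were recovered from the steps between RPKM values. Nuclear copies were found with blastn 2.17.0 (megablast, at least 90% identity over 40 bases) between transcripts. Genes over 0.5 RPKM in at least 1 mouse were fitted on log2(RPKM + 0.5) in R 4.3.3 by limma 3.58.1 (trended eBayes), and p-values were adjusted by Benjamini-Hochberg over all of them. All gene types were kept, since members are rRNAs and tRNAs. The test was tried on simulated data with known changes. Single values were compared with exact permutation tests (Python 3.11.15, scipy 1.17.1). The nuclear lists follow known gene functions, and the nuclear genes named were Polrmt, Tfam, Lrpprc and Slirp besides any called in a list. The set of members was proposed, and lists and tests were chosen, with earlier results of these data known, although the rule for members uses no value. Mice of 1 cohort may share transduced donor cells, so p-values measure the spread between these mice.

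Alternatives were pseudocounts of 0.1 and 1, other filters, scalings and variance models, limma voom on recovered reads, the study's own criterion (an unadjusted p under 0.05 with a ratio of mean RPKM over 2, here on all gene types tested rather than on protein-coding genes only), and leaving out each mouse. The minus-strand quantities and the length outside the nuclear copy were added after the values were seen.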

Additional observations from a re-analysis of the deposited data

How the results depend on the processing

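No paired analysis was possible because the cohorts share no mouse number. The share of mitochondrial reads, the summed mRNA level and the read ratios kept their direction when 1 mouse was left out and under the other scalings, denominators or units run for each. Quantile normalization was not run on them. The number of mRNAs called was 0, but 1 with a pseudocount of 1 and with median-of-ratios scaling (mt-Cytb higher) and 1 by the study's criterion (mt-Nd6 lower), and 0 to 1 when 1 mouse was left out. The number of rRNAs called was 0 to 1 when 1 mouse was left out. The number of tRNAs called was 2, but 1 with a pseudocount of 0.1, without the filter and with quantile normalization (mt-Tf in each), and 0 to 2 when 1 mouse was left out. Of the nuclear genes of mitochondrial gene expression, 1 was called when only protein-coding genes were fitted (Mrps18a lower, limma adjusted p = 0.0370) and 1 by the study's criterion (Mterf1b higher). Of the respiratory subunits, 3 were called by that criterion (Ndufs3 lower, Uqcr11 and Ndufs5 higher). Over all genes that criterion called 877 of 12806, and the fit of protein-coding genes 510 of 9522. These genes were named after their values were seen.

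Quantile normalization turned the log2 changes of mt-Tl1 to -0.12, mt-Nd1 to -0.083 and mt-Co1 to -0.074. The cause was not tested. Leaving out 1 mouse gave -0.16 to 0.47 for mt-Tl1, -1.50 to 0.037 for mt-Tg, -0.64 to 0.0069 for mt-Nd3, -0.67 to 1.19 for mt-Ts2 (-0.56 and -0.0044 without mice 3.3 and 3.5) and -2.14 to 0.064 for mt-Tl2. Except for mt-Tl1 these rest on at most 7 reads per mouse. Over all genes, 326 were called, 572 with limma voom on recovered reads, and 12 to 389 when 1 mouse was left out. The low-read tRNAs passed the filter with few reads in 1 mouse or more, and their changes are limited by depth.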
